A study of Mus musculus with 18 samples.

Results

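Triglyceride synthesis and glycerol handling in the fat depots were followed through 10 genes taken by symbol from the 25124 genes of each count table: Acsl1, Gpam, Agpat2, Lpin1, Dgat1, Dgat2, Gpd1, Gk, Aqp7 and Pck1. All 10 were present in the tables of inguinal white (iWAT), epididymal white (eWAT) and brown adipose tissue (BAT), and all 10 passed the filter on low counts in each depot. The rule used gene symbols alone and no measured value.

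The 18 libraries came from male mice on a C57BL/6J background, with 3 wild-type (WT) and 3 caspase-6 knockout (C6KO) libraries in each depot. C6KO mice carry a whole-body loss of Casp6, from a Jackson Laboratory stock, and were bred from heterozygous parents together with WT littermates, so the loss is not limited to fat cells. Both genotypes were kept for 12 weeks on a high fat diet (HFD), 60% of whose calories were fat, begun by the study's methods at 10 to 14 weeks of age, and no library came from lean mice. The methods state a fast of 10 hours before tissue collection for diet-fed cohorts without naming these libraries, and the labels do not say whether the same mice gave all 3 depots.

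Fat cells build triglyceride by adding fatty acids to a glycerol backbone. Acyl-CoA synthetases such as Acsl1 activate the fatty acid. Gpam attaches the first acyl group to glycerol 3-phosphate, Agpat2 attaches the next to make phosphatidic acid, Lpin1 removes the phosphate, and Dgat1 or Dgat2 adds the last acyl group. White fat takes its glycerol 3-phosphate largely from glucose through Gpd1, or from pyruvate and lactate through Pck1 in glyceroneogenesis during fasting. Glycerol freed by lipolysis leaves the cell through the channel Aqp7, and glycerol kinase (Gk) can return it to glycerol 3-phosphate, a route known to be weak in white and strong in brown fat.

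Counts on exons summed to 16506034 to 19043523 per iWAT library, 16717201 to 19139694 per eWAT library and 7803108 to 12428683 per BAT library. Casp6 was lower in each C6KO library than in each WT library of its depot, with log2 fold changes of -1.51, -1.85 and -1.50 in iWAT, eWAT and BAT and adjusted p of 0.0751, 0.0132 and 0.0671, so the deleted gene itself passed the threshold in eWAT alone. Adipocyte markers were abundant in all libraries and brown adipocyte markers summed to 6701 to 15373 CPM (counts-per-million, each library scaled to the same size) in WT BAT, against at most 71.3 CPM in WT iWAT and 30.0 CPM in WT eWAT. One library stood apart from its group: BAT WT 2 held skeletal muscle markers at a sum of 39797 CPM, against 49.1 and 1742 CPM in the other WT libraries and 459.9 to 8133 CPM in C6KO BAT.

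The first comparison asked whether loss of caspase-6 on HFD altered these genes in each depot. None of the 10 genes was called in iWAT, eWAT or BAT by edgeR's quasi-likelihood test, where a call needs a Benjamini-Hochberg adjusted p below 0.05 over all genes and a fold change of at least 1.5. The background was low as well: 0.0275% of 14533 genes were called in iWAT, 0.746% of 14889 in eWAT and 1.24% of 13595 in BAT. An unadjusted p below 0.05 was reached by 3 of the 10 in iWAT (16.5% of all genes tested), 3 in eWAT (17.6%) and 2 in BAT (13.2%). DESeq2, the study's own tool, called 2 of the 10 in iWAT, 1 in eWAT and none in BAT, where it called 4.72%, 3.99% and 3.67% of genes. The 10 genes had medians of -0.072, 0.18 and 0.13 on the log2 fold change scale in the 3 depots, in the same order, beside 0.027, -0.0060 and -0.032 for all genes tested.

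**Figure D1:**
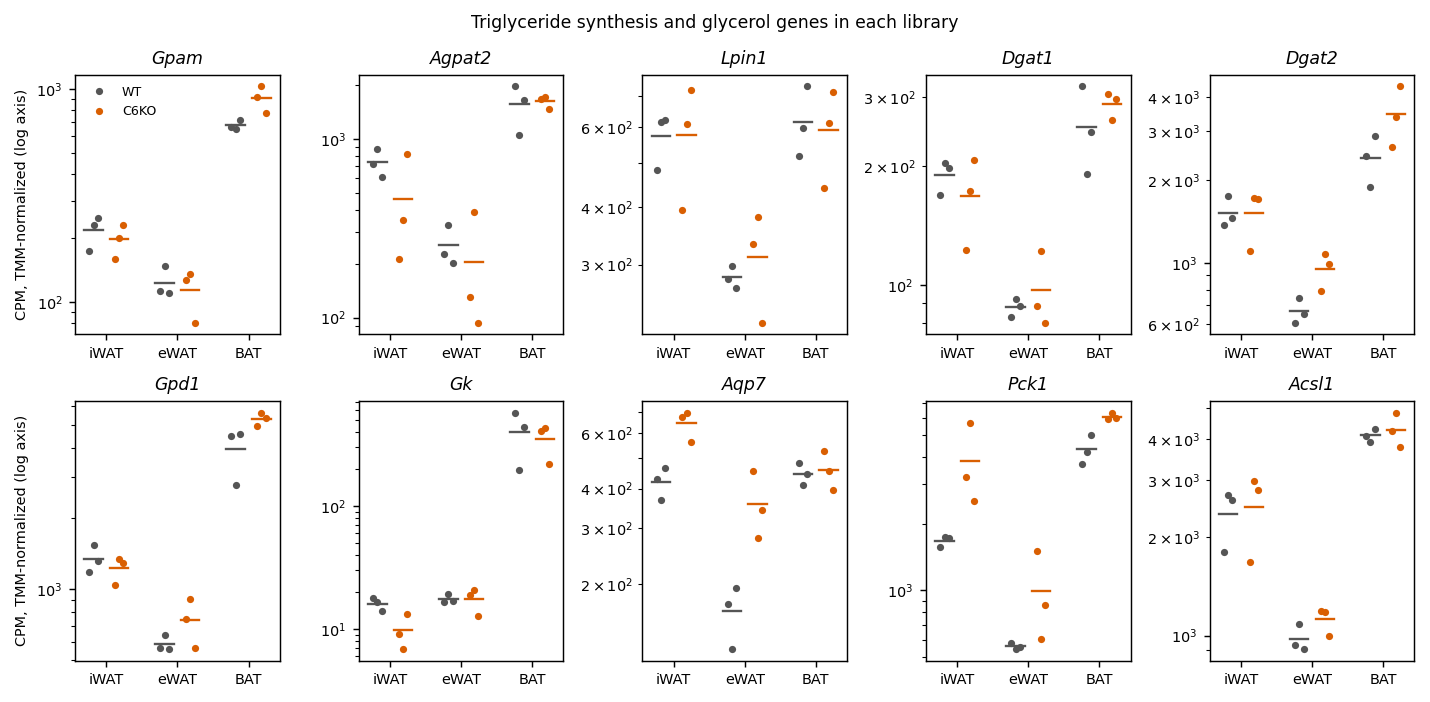
Level of each of the 10 genes in every library, in CPM normalized by TMM within each depot (log axis), for WT (grey) and C6KO (orange) in iWAT, eWAT and BAT; points are libraries and bars are group means of 3. Aqp7 and Pck1 in the white depots are where the C6KO bars stand farthest above the WT bars. The lowest C6KO point of Pck1 in eWAT sits just above the WT points, and Agpat2 shows the widest scatter among C6KO libraries.

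The 2 genes with the smallest p among the 10 were Aqp7 and Pck1, the exit for glycerol and an entry to new glycerol 3-phosphate. Their 250 bases upstream of the transcript start are shown for that reason and were read from RefSeq (GRCm38.p6), 5′ to 3′ on the strand of the gene, at chr4:41048137-41048386 (minus strand) and chr2:173152823-173153072 (plus strand).
Aqp7: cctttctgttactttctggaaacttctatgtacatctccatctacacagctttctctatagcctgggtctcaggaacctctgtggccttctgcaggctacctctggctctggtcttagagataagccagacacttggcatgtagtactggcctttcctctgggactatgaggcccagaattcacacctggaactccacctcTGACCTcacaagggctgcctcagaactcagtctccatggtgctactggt
Pck1: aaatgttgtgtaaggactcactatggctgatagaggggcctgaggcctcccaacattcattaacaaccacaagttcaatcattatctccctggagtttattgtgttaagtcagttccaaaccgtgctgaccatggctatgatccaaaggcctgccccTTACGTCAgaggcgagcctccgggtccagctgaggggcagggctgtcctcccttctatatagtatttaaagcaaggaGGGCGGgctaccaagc
Capitals mark exact matches to a short list of motifs searched on both strands. These were the GC box GGGCGG, present in 32.7% of 32851 promoters of the same length, and the E-box CACGTG, present in 6.02%. The cAMP response element was searched as TGACGTCA, present in 1.55%, and in a variant form as TTACGTCA, present in 0.447%. The nuclear receptor half-site AGGTCA was present in 14%, the CCAAT box in 33.8% and the TATA box, searched as TATAAA, in 12.4%. The Aqp7 window held AGGTCA on the opposite strand (written TGACCT), 49 to 44 bases before the start. The Pck1 window held TTACGTCA 93 to 86 bases and GGGCGG 16 to 11 bases before the start, and these matches did not overlap. Among the members with an entry, 4 of 7 held the GC box, 2 the half-site (Aqp7 and Lpin1), and 1 each the E-box (Gk), the variant response element (Pck1) and the CCAAT box (Gpam), a description of letters and not of bound sites. RefSeq entries were matched for 7 of the 10 genes, 6 of them at the start of the transcript listed in the count tables, and none for Dgat1, Dgat2 and Gpd1. The exception was Lpin1, whose entry, with its half-site, belongs to a start 21196 bases from the listed one.

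Aqp7 (NM_007473, chr4:41033074-41048136, minus strand), the channel through which fat cells release glycerol, stood at 428, 368 and 463 CPM in the WT libraries of iWAT and at 675, 695 and 562 CPM in the C6KO libraries. In eWAT it stood at 172, 125 and 194 CPM in WT and 455, 279 and 342 CPM in C6KO. Every C6KO library lay above every WT library in both white depots, an order that 10.9% of genes tested showed in iWAT and 12% in eWAT. The log2 fold change was 0.62 ± 0.15 (SE; adjusted p = 0.159) in iWAT, a fold of 1.53, and 1.13 ± 0.22 (SE; adjusted p = 0.0567) in eWAT, a fold of 2.19. In BAT the libraries overlapped, at 483, 409.7 and 444 CPM in WT and 524, 454 and 396 CPM in C6KO, with a difference of 0.040 and a 95% interval of -0.36 to 0.44. With DESeq2 in place of edgeR, Aqp7 was called in iWAT (adjusted p = 0.00633) and in eWAT (adjusted p = 7.62e-06), where DESeq2 called 4.72% and 3.99% of genes.

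Pck1 (NM_011044, chr2:173153073-173159274, plus strand), the enzyme that commits oxaloacetate to glyceroneogenesis in fat, had the highest mean of the 10 in WT BAT and the largest fold change of the 10 in iWAT. Its WT libraries in iWAT stood close together at 1569, 1739 and 1715 CPM, and its C6KO libraries spread over 3234, 5678 and 2532 CPM. In eWAT it stood at 578, 545 and 555 CPM in WT and 1503, 602 and 863 CPM in C6KO. In BAT it stood at 3723, 4209 and 5017 CPM in WT and 5885, 6314 and 5951 CPM in C6KO. No C6KO library overlapped a WT library in any of the 3 depots, although eWAT C6KO 2 sat just above the highest WT value. Its log2 fold changes were 1.19 ± 0.28 (SE; adjusted p = 0.154) in iWAT, 0.82 ± 0.30 (SE; adjusted p = 0.223) in eWAT and 0.49 ± 0.18 (SE; adjusted p = 0.288) in BAT, folds of 2.28, 1.77 and 1.40. Pck1 in iWAT was called with DESeq2 (adjusted p = 0.000899) and when all 18 libraries shared one fit (adjusted p = 0.0420; 2.31% of genes called), but not in eWAT or BAT under either.

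Pck1 is also a hepatocyte and kidney tubule gene, so both marker lists were set beside it. Hepatocyte markers summed to 14 to 60.9 CPM in WT and 47.1 to 305 CPM in C6KO in iWAT, 11.7 to 18.5 CPM in WT and 34.6 to 98.4 CPM in C6KO in eWAT and 8.46 to 11.1 CPM in WT and 12.2 to 15.5 CPM in C6KO in BAT, with all 10 detected in each depot and 2 of the 8 tested in eWAT, Ttr and Apob, called higher (7 with DESeq2). Their part in the Pck1 values was not tested. In C6KO 1, 2 and 3, in the order of the Pck1 values above, they summed to 53.3, 47.1 and 305 CPM in iWAT, 34.6, 92.6 and 98.4 CPM in eWAT and 12.2, 15.5 and 12.2 CPM in BAT. The C6KO library with the most hepatocyte marker RNA had the lowest Pck1 of the 3 in iWAT, the middle value in eWAT and the highest in BAT. The 6 kidney proximal tubule markers summed to 11.1 to 11.7 CPM in WT and 7.45 to 12.2 CPM in C6KO for iWAT, 22 to 28.2 CPM in WT and 12.5 to 36.3 CPM in C6KO for eWAT and 6.33 to 8.60 CPM in WT and 4.96 to 7.12 CPM in C6KO for BAT, with Slc22a6 at 0 in every depot.

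Gk (NM_001294140, chrX:85701937-85776819, minus strand), which phosphorylates free glycerol, had the lowest level of the 10 in the white depots and a negative estimate in iWAT. It stood at 17.9, 16.4 and 14 CPM in WT iWAT and 9.19, 6.88 and 13.2 CPM in C6KO iWAT, without overlap, where 12.2% of genes were lower without overlap. The log2 fold change in iWAT was -0.72 ± 0.24 (SE; adjusted p = 0.214), on 126 to 304 counts per library. In eWAT the values overlapped, at 16.5, 19.4 and 16.8 CPM in WT and 18.7, 20.7 and 12.8 CPM in C6KO, and the 95% interval of the log2 difference was -0.43 to 0.40. In BAT, Gk ranged over 575, 197 and 438 CPM in WT and 405, 427 and 221 CPM in C6KO, an interval of -1.20 to 0.79. The lowest BAT values were those of WT 2, the library with muscle RNA, and C6KO 3. Without BAT WT 2 the Gk estimate was -0.52 (adjusted p = 0.466).

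Gpd1 (NM_010271, chr15:99717587-99725014, plus strand) reduces dihydroxyacetone phosphate to glycerol 3-phosphate. In BAT it stood at 4492, 2785 and 4559 CPM in WT and 4917, 5625 and 5333 CPM in C6KO. The C6KO libraries lay above the WT libraries (8.07% of genes in BAT), by 0.42 ± 0.22 (SE; adjusted p = 0.460) on the log2 scale, and by 0.23 (adjusted p = 0.564) when BAT WT 2 was left out. In iWAT and eWAT the libraries overlapped, at 1184 to 1543 CPM in WT and 1041 to 1346 CPM in C6KO iWAT and 558 to 639.6 and 565 to 912 CPM in eWAT. The log2 fold changes were -0.14 ± 0.17 (SE; adjusted p = 0.727) and 0.34 ± 0.17 (SE; adjusted p = 0.348).

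Acsl1 (NM_007981, chr8:46471037-46536051, plus strand), the long-chain acyl-CoA synthetase of fat, had overlapping libraries in every depot. Its values ran over 1804 to 2695 CPM in WT and 1677 to 2979 CPM in C6KO iWAT, 909.7 to 1084 and 998 to 1192 CPM in eWAT, and 3921 to 4318 and 3793 to 4831 CPM in BAT. Its log2 difference had a 95% interval of -0.50 to 0.64 in iWAT, one of -0.089 to 0.50 in eWAT and one of -0.34 to 0.46 in BAT, so a change of 1.5-fold was outside the interval in eWAT and BAT in both directions but not in iWAT.

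Gpam (NM_001356285, chr19:55067636-55127238, minus strand), the mitochondrial acyltransferase of the first step, stood at 664, 653 and 716 CPM in WT BAT and 917, 1031 and 769 CPM in C6KO BAT. The C6KO libraries were higher without overlap in BAT (8.07% of genes), with a log2 fold change of 0.42 ± 0.18 (SE; adjusted p = 0.353), a fold of 1.34. In the white depots Gpam overlapped between genotypes, at 174 to 249 CPM in WT and 161 to 231 CPM in C6KO iWAT and 111 to 148 and 80.3 to 135 CPM in eWAT, with 95% intervals of -0.55 to 0.27 in iWAT and -0.59 to 0.35 in eWAT.

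Agpat2 (NM_026212, chr2:26593057-26604417, minus strand), whose loss causes congenital lipodystrophy, was the member with the widest intervals in the white depots. In iWAT it stood at 726, 881 and 611 CPM in WT and 211, 351 and 826 CPM in C6KO, where C6KO 1 and C6KO 2 lay below all WT libraries and C6KO 3 lay within them. In eWAT it stood at 227, 329 and 203 CPM in WT and 129.9, 389 and 93.6 CPM in C6KO, where C6KO 2 was above and C6KO 1 and C6KO 3 below all WT libraries. The log2 fold changes of -0.68 ± 0.48 (SE; adjusted p = 0.518) and -0.31 ± 0.61 (SE; adjusted p = 0.857) had intervals of -1.81 to 0.46 and -1.89 to 1.27. In BAT it stood at 1966, 1048 and 1655 CPM in WT and 1675, 1715 and 1477 CPM in C6KO, with BAT WT 2 lowest, and an interval of -0.48 to 0.60.

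Of the libraries left out singly in iWAT, only C6KO 3 changed the number of members that edgeR called. Macrophage markers summed to 1437 CPM in it, against 461 and 478 CPM in the other C6KO libraries and 2029 to 2212 CPM in WT. Hepatocyte markers summed to 305 CPM in it, against 53.3 and 47.1 CPM in the other C6KO libraries. The part of either in the calls was not tested. Without iWAT C6KO 3, 4 of the 10 genes were called in iWAT, where 8.64% of all genes were. Those were Aqp7 (0.68, adjusted p = 0.0229) and Pck1 (1.39, adjusted p = 0.00798), higher in C6KO, and Agpat2 (-1.42, adjusted p = 0.0125) and Gk (-1.02, adjusted p = 0.0193), lower. In eWAT, leaving out C6KO 2 called 2 of the 10, Aqp7 (1.29, adjusted p = 0.0329) and Pck1 (1.09, adjusted p = 0.0475), where 2.3% of all genes were called. Other omissions lowered Pck1: without eWAT C6KO 1 it was 0.40 (adjusted p = 0.239), and without iWAT C6KO 2 it was 0.78 (adjusted p = 0.284). Over all single omissions its adjusted p reached 0.473 in iWAT and 0.507 in eWAT, and that of Aqp7 0.493 and 0.190.

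Lpin1 (NM_015763, chr12:16535669-16589770, minus strand), the phosphatidic acid phosphatase, overlapped in every depot. Its values were 482 to 621 CPM in WT and 395 to 722 CPM in C6KO iWAT, 267 to 298 and 224 to 380.2 CPM in eWAT, and 517 to 736 and 441 to 717 CPM in BAT. Its log2 difference had an interval of -0.51 to 0.51 in iWAT, one of -0.25 to 0.55 in eWAT and one of -0.57 to 0.45 in BAT. Dgat1 (NM_010046, chr15:76502012-76511994, minus strand), one of the enzymes of the last step, overlapped too, at 169 to 204 CPM in WT and 123 to 208 CPM in C6KO iWAT, 82.7 to 92.1 and 80.2 to 122 CPM in eWAT, and 191 to 319 and 262 to 305 CPM in BAT. Its intervals were -0.61 to 0.25, -0.20 to 0.49 and -0.27 to 0.67.

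Dgat2 (NM_026384, chr7:99153663-99182713, minus strand), the other enzyme of the last step, was higher in C6KO eWAT without overlap, as were 12% of genes tested there. It stood there at 606, 746 and 653 CPM in WT and 789, 1075 and 994 CPM in C6KO, with a log2 fold change of 0.51 ± 0.15 (SE; adjusted p = 0.113), a fold of 1.43 and thus below the minimum for a call. In BAT it stood at 2439, 1878 and 2897 CPM in WT and 2624, 3391 and 4376 CPM in C6KO, overlapping, with a log2 fold change of 0.53 ± 0.24 (SE; adjusted p = 0.396). In iWAT the estimate was -0.0080 with an interval of -0.47 to 0.46. The difference between the Dgat1 and Dgat2 responses was not tested.

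**Figure D2:**
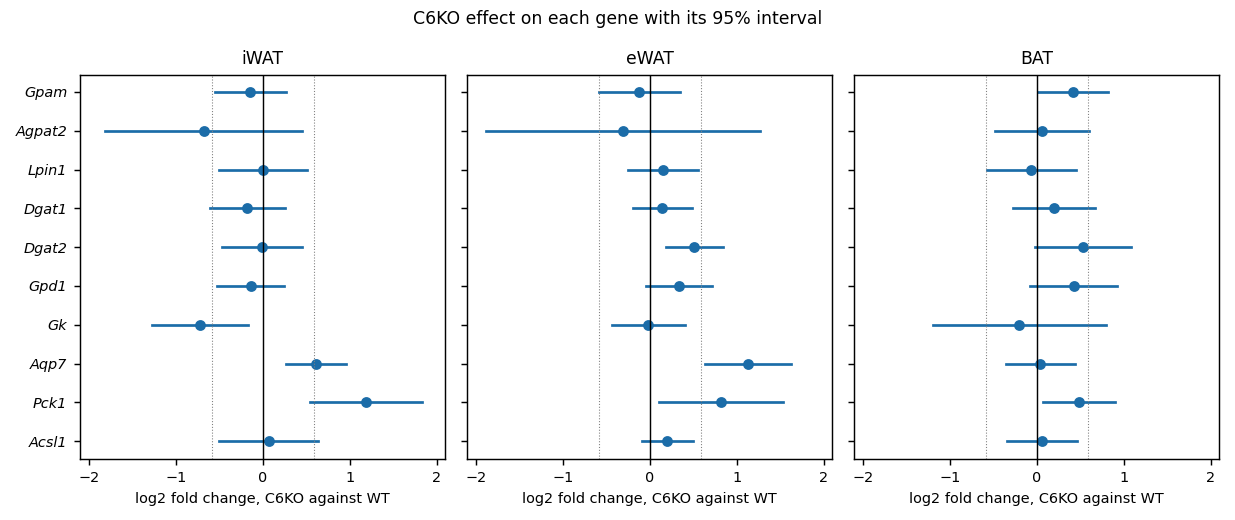
Log2 fold change of C6KO against WT for each gene in iWAT, eWAT and BAT, with the 95% interval of the quasi-likelihood fit (n = 3 libraries per genotype); dotted lines mark 1.5-fold in each direction. The intervals of Aqp7 and Pck1 lie above 0 in iWAT and eWAT, as do those of Dgat2 in eWAT and of Pck1 and Gpam in BAT. That of Gk lies below 0 in iWAT, and that of Agpat2 is the widest in both white depots.

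Marker sums of several cell types differed between genotypes beside these values, and their part in them was not tested other than by the scaling given next. Macrophage markers were lower in C6KO in every depot, with sums of 2029 to 2212 CPM in WT and 461 to 1437 CPM in C6KO in iWAT, 7504 to 9108 CPM in WT and 5125 to 6204 CPM in C6KO in eWAT and 732 to 908 CPM in WT and 238 to 365 CPM in C6KO in BAT, and edgeR called 7 of the 12 lower in BAT and none in iWAT or eWAT, where 10 and 11 had an unadjusted p below 0.05. DESeq2 called 10 lower in BAT, 4 in iWAT and 3 in eWAT. Of all genes tested, edgeR called 1.24% in BAT, and 16.5% in iWAT and 17.6% in eWAT had an unadjusted p below 0.05. Adipocyte markers summed to 36909 to 40206 CPM in WT and 42278 to 45003 CPM in C6KO in iWAT, 20839.7 to 23014 CPM in WT and 21482 to 29644 CPM in C6KO in eWAT and 21197 to 28884 CPM in WT and 24276 to 28819.7 CPM in C6KO in BAT, and their median log2 differences were 0.39, 0.57 and 0.16. In eWAT, where Aqp7 and Dgat2 were higher without overlap, edgeR called 2 of the 10 adipocyte markers higher (Plin1 and Lipe) and DESeq2 called 5. Progenitor and fibroblast markers had medians of -0.75, -0.24 and -0.48. Of the other lists, with edgeR, Cldn5 of 8 endothelial markers was called higher in eWAT. All 8 had higher estimates there, 6 with an unadjusted p below 0.05, and DESeq2 called 3 higher. Their sums in eWAT were 650 to 752 CPM in WT and 936 to 1107 CPM in C6KO. In BAT, Lrrn4, the 1 of 7 mesothelial markers that passed the filter, was called higher. The 7 together summed there to only 1.06 to 1.20 CPM in WT and 4.80 to 5.65 CPM in C6KO. Col3a1 of 8 progenitor and fibroblast markers was called lower in BAT. None of the T and B cell markers tested (10 in each white depot and 3 in BAT) was called. In each depot, 6 of 7 epididymis and testis markers were at 0. DESeq2 called 1 T and B cell marker lower in eWAT (Cd8a) and 3 lower in BAT (Cd3g, Cd8a and Ltb). In bulk tissue, fewer cells of a type and less RNA per cell cannot be told apart.

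The genes were therefore also scaled to the adipocyte markers, which sets each library by the geometric mean of 10 of them and moved the median of all genes to -0.38 in iWAT, -0.48 in eWAT and -0.16 in BAT. On this scale, Aqp7 was 0.20 in iWAT (adjusted p = 0.440) and 0.63 in eWAT (adjusted p = 0.0252), the latter called where 23.4% of all genes were, nearly all of them lower. Pck1 was 0.73 in iWAT (adjusted p = 0.0895) and 0.30 in eWAT (adjusted p = 0.303). Gpam in eWAT was called lower at -0.62 (adjusted p = 0.0173). Set against the marker mean library by library, Pck1 in iWAT had log2 ratios of 0.12, 0.25 and 0.23 in WT and 0.89, 1.31 and 0.46 in C6KO, still without overlap. In BAT the WT ratios were 1.94, 2.29 and 2.32 and those of C6KO 2.70, 2.39 and 2.56, again without overlap. Its ratios in eWAT overlapped, as did those of Aqp7 in all 3 depots. On this ratio a general shift downward was present: of all genes tested, 44.6% in the iWAT table, 56.8% in that of eWAT and 13.8% in that of BAT were lower in C6KO without overlap, and 0.729%, 1.03% and 3.34% were higher. Of the members, 4 of 10 were lower in iWAT (Dgat1, Dgat2, Gpd1 and Gk), 3 in eWAT (Gpam, Gk and Acsl1) and none in BAT, shares at or below that background. Those higher were Pck1 in iWAT, none in eWAT, and Gpam, Gpd1 and Pck1 in BAT.

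**Figure D3:**
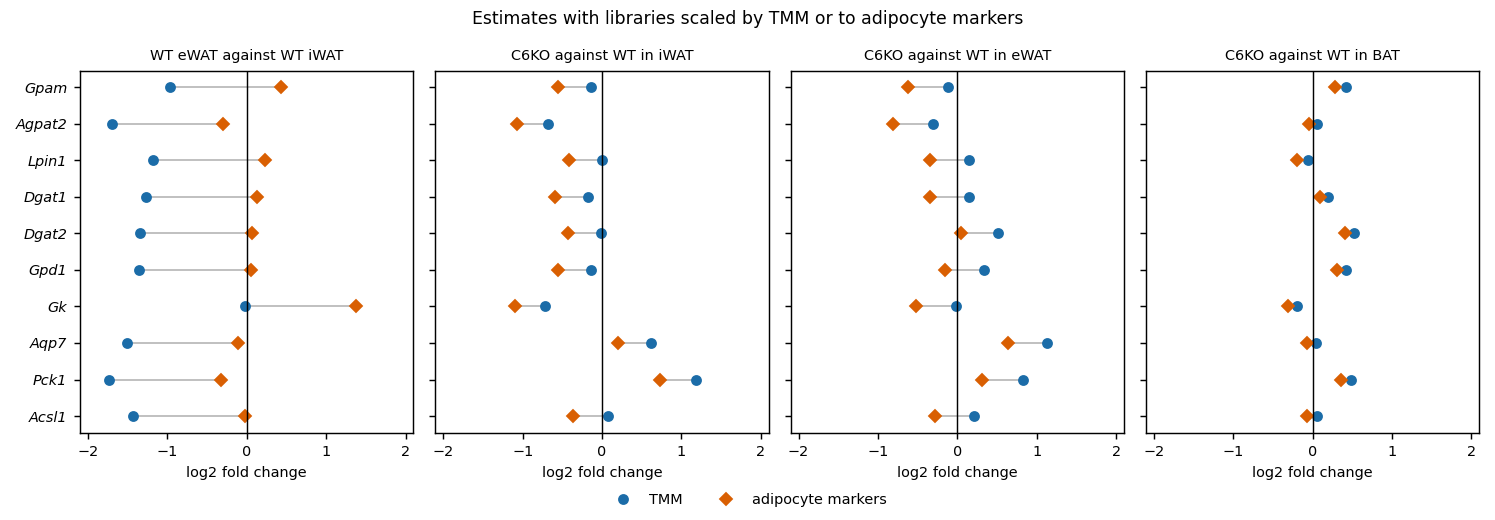
Log2 fold change of each gene with libraries scaled by TMM (blue circles) or to adipocyte markers (orange diamonds), for WT eWAT against WT iWAT and for C6KO against WT in each depot. The marker scaling shifts the estimates of a panel by nearly one amount, which brings the eWAT and iWAT levels of most genes together and leaves Pck1 in iWAT and Aqp7 in eWAT as the highest C6KO estimates.

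Whether the C6KO effect itself differed between depots was tested as an interaction in one fit of all 18 libraries. No member was called in any of the 3 contrasts, where 0.183%, 0.536% and 0% of 15866 genes were called for BAT against iWAT, BAT against eWAT and eWAT against iWAT. An unadjusted p below 0.05 was reached by Aqp7 alone for BAT against iWAT (9.93% of genes) and BAT against eWAT (11.2%), and by no member for eWAT against iWAT (5.48%). DESeq2 called no member for BAT against iWAT (1.26% of genes) or eWAT against iWAT (0.0866%). For Aqp7 the C6KO effect in BAT was lower than in eWAT with a log2 difference of -1.10 ± 0.27 (SE; adjusted p = 0.0822), and than in iWAT with one of -0.59 ± 0.27 (SE; adjusted p = 0.485). The first of these was called with DESeq2 (adjusted p = 0.00724), which called 2.4% of genes. For Pck1 the intervals were -1.55 to 0.14 for BAT against iWAT, -1.18 to 0.50 for BAT against eWAT and -1.21 to 0.48 for eWAT against iWAT, so the larger estimate in iWAT is not shown to differ from the others.

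The depots were compared in WT mice. All 10 genes were higher in BAT than in eWAT, 6 of 10 were higher in BAT than in iWAT, and 9 of 10 were lower in eWAT than in iWAT, all called. The shares of all 15866 genes called in those directions were 25%, 20.1% and 12.9%. The depots were tabulated separately and the labels name no preparation batch, so depot and library preparation cannot be told apart.

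Gk had the widest depot range. In CPM per kilobase of the listed transcript it stood at 4.08, 3.77 and 3.18 in WT iWAT, 3.43, 3.95 and 3.44 in WT eWAT and 148, 47.5 and 109.7 in WT BAT. BAT exceeded iWAT by 4.78 ± 0.40 (SE; adjusted p = 2.3e-07) on the log2 scale, a fold of 27.5, and eWAT by a fold of 28.0. The white depots did not differ beyond their spread, with a 95% interval of -0.78 to 0.73 on the log2 scale. The listed transcript of Gk is 4402 bases long in the BAT table (NM_001294138) and 4422 bases in the others, the one member for which the tables list different transcripts.

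The enzymes that supply glycerol 3-phosphate, Pck1 and Gpd1, were highest in BAT, lower in iWAT and lowest in eWAT. Pck1 was higher in BAT than in eWAT by a fold of 9.32 and than in iWAT by 2.80, and Gpd1 by 8.17 and 3.20. Of the acyltransferases, Gpam was higher in BAT than in eWAT by a fold of 6.62 and than in iWAT by 3.38, Dgat2 by 4.37 and 1.72, and the synthetase Acsl1 by 5.10 and 1.89, all called. Agpat2 was 7.49-fold and Dgat1 3.49-fold higher in BAT than in eWAT, both called. Against iWAT neither was called, at log2 differences of 1.20 ± 0.51 (SE; adjusted p = 0.0670) and 0.53 ± 0.21 (SE; adjusted p = 0.0475). Without BAT WT 2, the lowest WT library for both, they were called at 1.44 and 0.71, which made 8 of 10 where 39% of genes were called in either direction.

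Aqp7 and Lpin1 did not differ between iWAT and BAT beyond the spread of the WT libraries. Aqp7 was 169 ± 18.9 (SD, n = 3) CPM per kilobase in WT iWAT, 195 ± 22 in WT BAT and 59.1 ± 13.1 in WT eWAT, and Lpin1 104 ± 14.5, 122 ± 21.5 and 45.9 ± 2.35. The interval of BAT against iWAT was -0.19 to 0.61 for Aqp7 and -0.28 to 0.72 for Lpin1 on the log2 scale. In eWAT both were lower than in iWAT, with log2 differences of -1.51 ± 0.19 (SE; adjusted p = 3.93e-05) and -1.18 ± 0.24 (SE; adjusted p = 0.00138). In C6KO mice Aqp7 stood at 258 ± 27.4 in iWAT, 198 ± 25.9 in BAT and 129 ± 31.6 in eWAT. Its C6KO libraries ran from 226 to 278 in iWAT and from 174 to 225 in BAT, a difference that was not tested.

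**Figure D4:**
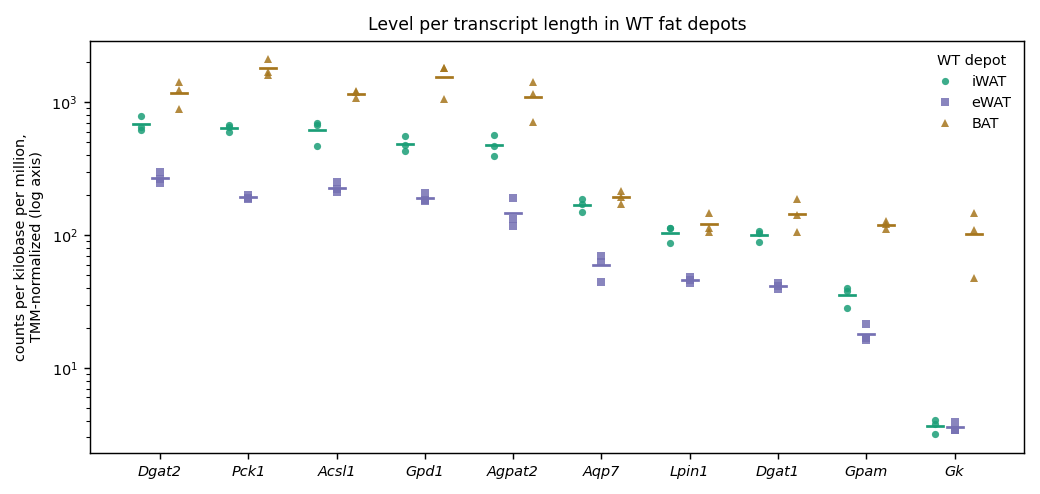
Level of each gene in WT iWAT, eWAT and BAT, in CPM per kilobase of listed transcript, TMM-normalized over all 18 libraries (log axis); points are libraries, bars are means of 3, and genes are ordered by their level in WT iWAT. Gk is about even in the white depots and far higher in BAT, while Aqp7 and Lpin1 sit at like levels in iWAT and BAT and lower in eWAT.

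Per length, Dgat2, Pck1, Acsl1, Gpd1 and Agpat2 were the 5 highest and Gpam and Gk the lowest in each WT depot. In WT iWAT, Dgat2 (686 ± 90.6), Pck1 (644 ± 37.0), Acsl1 (617 ± 129), Gpd1 (488 ± 67.6) and Agpat2 (477 ± 89.0 CPM per kilobase) formed a chain in which each gene's libraries overlapped those of the next. Aqp7, then Lpin1 and Dgat1 together, then Gpam (35.4 ± 6.42) and Gk followed, each step without overlap. In WT BAT, Pck1 (1803 ± 267) and Gpd1 (1561 ± 434) had the highest means, with Gpd1 overlapping Pck1 as well as Dgat2, Acsl1 and Agpat2, and Gpam (119.6 ± 7.76) and Gk (102 ± 50.5) overlapped Lpin1 and Dgat1. In WT eWAT, Dgat2 (271 ± 26.3) and Acsl1 (229 ± 20.6) overlapped at the top. In C6KO iWAT, Pck1 had the highest mean of the 10 at 1461 ± 630.4, beside 680.1 ± 162 for Dgat2.

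Marker levels differed between the depots in the same WT libraries. Adipocyte markers summed to 36909 to 40206 CPM in WT iWAT, 20839.7 to 23014 CPM in WT eWAT and 21197 to 28884 CPM in WT BAT, each normalized within its depot. Macrophage markers summed to at least 7504 CPM in WT eWAT and at most 2212 CPM in WT iWAT. Scaled to the adipocyte markers, the eWAT against iWAT log2 differences of the 10 genes ran from -0.33 (Pck1) to 1.38 (Gk), below the median of all genes, 1.41, and Gk alone was called, as higher in eWAT, beside 79.1% of all genes. Against iWAT, all 10 genes were then called higher in BAT. In that comparison the median of all genes was 0.52 and 47.1% of 15866 were called, 6258 higher and 1213 lower. Against eWAT, 9 of 10 were called higher in BAT, with Lpin1 uncalled at 0.51. There the median of all genes was -0.86 and 64% were called, 1581 higher and 8566 lower.

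Among other genes of the pathway, of 35 listed, 30 passed the filter in each white depot and 31 in BAT, and none was called between genotypes. Their medians, 0.076, 0.17 and 0.12, stood beside -0.072, 0.18 and 0.13 for the 10 genes. An unadjusted p below 0.05 was reached by 9 in eWAT (17.6% of all genes), all with higher estimates in C6KO, by 5 in iWAT (16.5%) and by 4 in BAT (13.2%). The counts in iWAT and BAT, 5 of 30 and 4 of 31, are near those shares. DESeq2 called Lpin2 in iWAT, Plpp3 in eWAT and none in BAT, where it called 4.72%, 3.99% and 3.67% of all genes. The smallest p in eWAT belonged to the lipid phosphatases Plpp3 (0.62 ± 0.14, adjusted p = 0.0655) and Plpp1 (0.41 ± 0.10, adjusted p = 0.0705). In iWAT it belonged to Lpin2, a relative of Lpin1 (-0.68 ± 0.18, adjusted p = 0.165), and the acyltransferase Agpat3 (0.34 ± 0.12, adjusted p = 0.236). In BAT it belonged to Gpat4, which performs the same step as Gpam in the endoplasmic reticulum (0.53 ± 0.17, adjusted p = 0.197), and Mogat1, which acylates monoacylglycerol (0.69 ± 0.24, adjusted p = 0.246).

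Of 5 lipolysis genes, 1 was called: Lipe, hormone-sensitive lipase, in eWAT, where 0.746% of all genes were. It stood at 740.5, 716 and 769.9 CPM in WT and 1299, 1238 and 1119 CPM in C6KO, a log2 fold change of 0.72 ± 0.12 (SE; adjusted p = 0.0432). An unadjusted p below 0.05 was reached by 5 of 5 in eWAT (17.6% of all genes), 3 in iWAT (16.5%) and 1 in BAT (13.2%). All of these had higher estimates in C6KO. Lipe is also one of the adipocyte markers. Pnpla2, which encodes the triglyceride lipase ATGL that the study centred on, was higher in C6KO without overlap in all 3 depots, by 0.73 ± 0.18 (SE; adjusted p = 0.158) on the log2 scale in iWAT, 0.79 ± 0.15 (SE; adjusted p = 0.0524) in eWAT and 0.57 ± 0.17 (SE; adjusted p = 0.162) in BAT, uncalled. DESeq2 called it in all 3, and also called Lipe and Mgll higher in eWAT. The next smallest p belonged to G0s2 in iWAT, an inhibitor of ATGL (0.60 ± 0.20, adjusted p = 0.204), and to Lipe in BAT (0.19 ± 0.18, adjusted p = 0.711). Of 10 transcription factors with known roles at these genes none was called, 1 with DESeq2 (Mlxipl in BAT, where it called 3.67% of all genes). Of these factors, 4 in iWAT (16.5% of all genes), 3 in eWAT (17.6%) and 1 in BAT (13.2%) had an unadjusted p below 0.05. The smallest p belonged to Nr1h3 (0.49 ± 0.12, adjusted p = 0.161) and Pparg (0.33 ± 0.13, adjusted p = 0.264) in iWAT, Mlxipl (0.54 ± 0.12, adjusted p = 0.0655) and Pparg (0.30 ± 0.10, adjusted p = 0.149) in eWAT, and Mlxipl (0.93 ± 0.25, adjusted p = 0.124) and Nr1h3 (0.31 ± 0.18, adjusted p = 0.511) in BAT.

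The 10 genes did not vary as one set across the 18 libraries. After each depot's mean was subtracted from log2 CPM, Gpd1 followed the mean of the members most closely (Pearson r = 0.925 over 18 libraries), followed by Dgat1 (0.845) and Acsl1 (0.783). Pck1 (0.187) and Aqp7 (0.190) followed it least, and these 2, each set against its group's mean, correlated with each other at r = 0.556. The genes outside the set that followed its mean most closely were Ppp2r5a (0.923), Gm16537 (0.921), Cpt2 (0.874), Abcd3 (0.865) and Rmdn3 (0.858). Each member is part of that mean, which raises its own r, so the members' values are not comparable with those of outside genes. Gm16537 is annotated antisense to Gpd1 and shares 384 exon bases with it, and the strand setting of the counting is not given in the sources used here, so its count may hold Gpd1 reads. These correlations describe libraries that share depth and tissue makeup: 1 of the 5 was among the 5 closest in the 9 WT libraries alone and 1 in the 9 C6KO libraries alone. Exon overlaps also join Agpat2 with Egfl7 (64 bases), Gk with Gm14764 (84 bases) and Acsl1 with Gm45244 (1039 bases), all on the opposite strand.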

How the data were processed

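Poly(A) RNA from 18 fat samples was sequenced on an Illumina NextSeq. Per the labels and the study's methods, the authors aligned reads to mm10 with STAR and deposited, for each depot, a table of whole-number counts on exons from HOMER, with 1 listed transcript per gene symbol; versions, annotation and strand setting are not given in the sources used here. Groups came from the sample labels. Replicates are labelled as separate samples without stating separate animals, so p-values measure the spread between these samples.

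Here, genes were filtered with filterByExpr, scaled by TMM and tested with edgeR 4.0.16 (quasi-likelihood, robust), within each depot for C6KO against WT and in one fit of 18 libraries for WT depots and interactions. p-values were Benjamini-Hochberg adjusted over all genes tested in a comparison, and a call needs an adjusted p below 0.05 and a fold of at least 1.5. CPM is TMM-scaled, and levels between genes are per kilobase of the listed transcript. Alternatives were DESeq2 1.42.0, its size factors in edgeR, total counts, scaling to adipocyte markers, no filter or at least 10 counts in every library, a test against 1.5-fold, no fold minimum, a replicate block, 1 fit of all libraries, WT libraries only and leaving out each library. An exact permutation test of 3 against 3 libraries cannot go below 0.1 and was not used.

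The 10 genes, the lists and the rule for named genes were chosen with earlier results of these data known. By that rule the text names all 10, called genes of the pathway, lipolysis and transcription factor lists or else the 2 with the smallest p in each depot, and the 5 genes most correlated with the members' mean. Marker genes named beside a result (Ttr, Apob, Slc22a6, Plin1, Cldn5, Lrrn4, Col3a1, Cd8a, Cd3g and Ltb) were chosen after their values were seen. Scripts were tested on simulated data. Promoters are from RefSeq (GRCm38.p6) and exon overlaps from GENCODE vM21, on the build of the files.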

Additional observations from a re-analysis of the deposited data

How the results depend on the processing

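Between genotypes, the count of members called in iWAT, 0 of 10, became 2 with DESeq2 (Aqp7 and Pck1), 1 in one fit of all 18 libraries (Pck1), and 0 to 4 when single libraries were left out. In eWAT, 0 became 2 with adipocyte marker scaling, 1 with no filter (Aqp7, adjusted p = 0.0429), 1 with DESeq2 (Aqp7), 1 with the replicate block (Aqp7, adjusted p = 0.00524) and 0 to 2 with single libraries left out. In BAT it was 0 under every alternative, each left-out library included. The labels tie the replicate numbers to no shared animal or batch. Same-numbered WT and C6KO libraries correlated at 0.030, 0.022 and 0.037 (iWAT), 0.16, -0.10 and 0.16 (eWAT) and -0.30, -0.60 and -0.24 (BAT). No BAT library correlated best with its own number, so the numbers are not shown to pair the genotypes. Across depots, same-numbered WT libraries of eWAT and iWAT correlated at 0.091, 0.22 and 0.044, against means of -0.042, -0.11 and -0.021 with other numbers. BAT and iWAT had 0.019 to 0.073 over both genotypes, each above its mean with other numbers. C6KO libraries of BAT and eWAT had -0.0070, -0.048 and 0.049, against 0.0024, 0.028 and -0.027. Whether 1 mouse gave several depots was not tested, and the main fit of all 18 libraries treats them as separate. The block moved the calls over all genes from 4 to 8 higher and 54 lower in iWAT, 111 to 298 higher and 116 lower in eWAT and 168 to 12 higher and 101 lower in BAT, and changed no other count of members called between genotypes. In WT depots, adipocyte marker scaling changed 6 calls to 10 for BAT against iWAT (6 to 8 with libraries left out, and 4 when the fold was tested against 1.5, where Dgat2 and Acsl1 were lost at adjusted p = 0.209 and 0.0684) and 9 to 1 for eWAT against iWAT (8 to 9, and 7 when the fold was tested against 1.5), while BAT against eWAT went from 10 to 9 with that scaling and was 10 with each library left out. The BAT against eWAT interaction became 1 with DESeq2 (Aqp7). Estimates near 0 changed sign. Lpin1 in iWAT was 0.0041 and became -0.0027 with DESeq2 size factors, -0.050 with total counts, -0.0050 with at least 10 counts, -0.0019 with DESeq2, -0.030 with the block and -0.42 with marker scaling. Gk between the white depots was -0.027 and became 0.0027, 0.12, 0.027, 0.0025 and 1.38 under the same settings without the block. Marker scaling also reversed Acsl1 in iWAT (-0.36), Lpin1 (-0.35), Dgat1 (-0.34), Gpd1 (-0.16) and Acsl1 (-0.29) in eWAT, Agpat2 (-0.050), Aqp7 (-0.074) and Acsl1 (-0.075) in BAT, Gpam (0.44), Lpin1 (0.22), Dgat1 (0.14), Dgat2 (0.065) and Gpd1 (0.051) between the white depots, and the Pck1 interaction of BAT against eWAT (0.054). With single libraries left out, sign changes lay within -0.22 to 0.21 for Lpin1, -0.091 to 0.29 for Acsl1, -0.38 to 0.0043 for Dgat1 and -0.13 to 0.18 for Dgat2 in iWAT, -1.17 to 0.036 for Agpat2, -0.048 to 0.26 for Dgat1, -0.15 to 0.17 for Gk, -0.25 to 0.081 for Gpam and -0.0056 to 0.34 for Lpin1 in eWAT, -0.012 to 0.14 for Acsl1, -0.15 to 0.28 for Agpat2, -0.036 to 0.13 for Aqp7, -0.52 to 0.16 for Gk and -0.23 to 0.14 for Lpin1 in BAT, -0.12 to 0.054 for Gk between white depots, and -0.59 to 0.093 and -0.80 to 0.039 for the Pck1 interactions of BAT and of iWAT with eWAT. Aqp7 in iWAT and eWAT and Pck1 in all 3 depots kept a positive estimate under every alternative run. So did Dgat2 in eWAT and Gpam, Dgat1, Dgat2 and Gpd1 in BAT, while Gpam, Agpat2, Gpd1 and Gk in iWAT kept a negative one. The causes were not tested.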
